A study of Mus musculus with 6 samples.

Results

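Named pseudogenes are the genes whose symbol ends in -ps, or in -ps and a number, in the deposited expression table of primary mouse macrophages cultured from bone marrow (BMDM). Of 14005 listed genes, 132 carried such a name; Nlrp1c-ps and Slfn10-ps were left out, so 130 were described. The choice among listed genes went by name alone. No listed gene had a mean under 9.28 normalized counts over the 6 libraries, so copies at lower levels are absent. PolyA-selected RNA had been sequenced in 3 libraries labelled Txn1 KO, which join the allele Txn1tm1.1Ees/J to a Cre allele from the stock B6.129P2-Lyz2tm1(cre)lfo/J, and in 3 wild-type libraries, to ask how loss of thioredoxin-1 affects genes of the NLRP1 inflammasome. The labels give the C57BL/6J background and pooled male and female cells for all 6 libraries, and no age. The Cre recombinase is knocked into Lyz2, the lysozyme gene, which restricts it to myeloid cells and interrupts Lyz2 itself. The stock name of that allele records a 129P2 origin. Cre, the Txn1 allele and any DNA carried along with either cannot be told apart here, and cells with Cre but an intact Txn1 were not analysed here. Whether a replicate stands for its own animal or culture is not in the labels; p-values therefore measure only the spread between these samples.

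A processed pseudogene is a copy of a spliced mRNA that was reverse transcribed and inserted elsewhere in the genome, so it lacks the introns of its parent gene and usually a promoter of its own. Abundant housekeeping mRNAs, above all those of ribosomal proteins, have left many such copies. An unprocessed pseudogene arose by duplication of the DNA and may keep introns, and a unitary pseudogene is a gene that lost its function without leaving an intact copy. A recent copy differs from its parent at few bases, so few short reads can tell them apart, and counts of near-identical copies are uncertain. In these data "parent" means the gene whose symbol remains when the -ps ending is removed.

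The annotation (GENCODE M21, build GRCm38) gave 98 of the 130 as processed, 6 as transcribed processed, 9 as transcribed unprocessed, 7 as unprocessed and 2 as transcribed unitary pseudogenes. A further 5 were annotated as protein coding, and the remaining 3 as a processed transcript, a lincRNA and a polymorphic pseudogene. By name, 62 were copies of ribosomal protein genes and 68 of other genes. A listed parent was found for 115 of them, 113 by symbol and 2 through a synonym, which made 85 distinct parents. The aligned copies were 99.2% identical to a transcript of their parent at the median (range 80.9% to 100%), and 20 showed no difference over the aligned bases. At the median, 73.3% of all 50-base windows of a copy also stood in a transcript of some other gene, on either strand. This was so for every window of 24 copies and for no window of 8. Of 99 copies whose alignment reached the parent's start codon, 67 kept an open reading frame at least as long as the parent's. Of the 130, 77 lay clear of any other annotated gene and 53 overlapped one.

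The sequences of the Rps15a copies are shown first. They and an Rps13 copy hold the largest changes among the called named pseudogenes and differ from their parents at few bases. Rps15a encodes a protein of the small ribosomal subunit. The lines give bases 101 to 220 of the coding sequence of Rps15a (chr7:118104372-118116188, minus strand) and the aligned bases of its 3 listed copies, Rps15a-ps5 (chr5:105797321-105797713, minus), Rps15a-ps6 (chr11:6172644-6173036, minus) and Rps15a-ps7 (chr2:152185291-152185682, minus), 5′ to 3′ from GENCODE M21 on GRCm38. Capitals mark bases that differ from the parent.
Rps15a: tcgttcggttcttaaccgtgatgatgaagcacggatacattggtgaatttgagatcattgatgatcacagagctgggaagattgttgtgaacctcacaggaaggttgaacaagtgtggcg
Rps15a-ps5: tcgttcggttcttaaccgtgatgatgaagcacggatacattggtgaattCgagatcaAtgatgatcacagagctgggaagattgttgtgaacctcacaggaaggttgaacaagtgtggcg
Rps15a-ps6: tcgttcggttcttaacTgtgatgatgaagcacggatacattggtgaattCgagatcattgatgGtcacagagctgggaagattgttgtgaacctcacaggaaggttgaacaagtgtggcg
Rps15a-ps7: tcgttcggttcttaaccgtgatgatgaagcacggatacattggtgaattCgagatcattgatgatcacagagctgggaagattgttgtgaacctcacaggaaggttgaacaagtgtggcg
With positions counted from the A of the start codon and the parent's base written first, T150C was the only substitution that all 3 copies held. Of the 8 annotated Rps15a copies, 7 held T150C, and 3 of the 8 were listed in the expression table. Rps15a-ps5, Rps15a-ps6 and Rps15a-ps7 shared 45.1%, 55.2% and 60.1% of their 50-base windows with Rps15a. The reading frame ran for 130 codons in Rps15a-ps5, as in the parent, and ended after 2 codons in Rps15a-ps6 and after 37 in Rps15a-ps7.

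Rps13 encodes another protein of the small subunit. The lines give its coding bases from 381 on (gene at chr7:116331505-116334195, minus strand) with Rps13-ps1 (chr8:87047689-87048226, plus), Rps13-ps2 (chr7:88530446-88530898, minus) and Rps13-ps4 (chr8:119602170-119602625, minus), with differences from the parent again in capitals.
Rps13: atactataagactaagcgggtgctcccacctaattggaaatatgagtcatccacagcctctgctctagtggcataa
Rps13-ps1: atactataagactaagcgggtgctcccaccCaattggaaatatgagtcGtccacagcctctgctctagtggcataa
Rps13-ps2: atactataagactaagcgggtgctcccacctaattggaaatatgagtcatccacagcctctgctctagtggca
Rps13-ps4: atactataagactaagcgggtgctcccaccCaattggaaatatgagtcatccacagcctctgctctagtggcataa
Rps13-ps1 differed from the coding sequence of Rps13 at T411C and A429G and nowhere else, and kept all 151 codons open. Rps13-ps4 held T411C as well, with C106A and G121C, but not A429G. Rps13-ps2 showed no difference over its aligned coding bases. Among the 7 annotated Rps13 copies, T411C stood in 5 and A429G in 2, of which Rps13-ps1 was the only one listed in the expression table.

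The libraries labelled Txn1 KO held 25939608, 31127228 and 22508616 reads in listed genes and the wild-type libraries 29716640, 38726953 and 35988877, with 1 read worth 0.777 to 1.35 normalized counts, and 3 reads, taken as the floor, worth 2.33 to 4.04 (counting error only). Txn1, summed over the whole gene, did not pass the test (log2 change -0.03, limma adjusted p = 0.686), so the group name is used as a label, while Lyz2 fell (log2 change -6.96, limma adjusted p = 1.94e-13). Summed hepatocyte markers, 3 of 6 listed, stood at 771.1 normalized counts in Txn1 KO replicate 3 and 839.6 in wild-type replicate 1, against at most 1.68 in the other libraries. Stromal markers, 5 of 5 listed, summed to 1140 to 1982 normalized counts in Txn1 KO and 2297 to 2620 in wild-type libraries, and the T cell list, 1 of 4 listed, to 134.5 to 161.5 against 211.3 to 247.6. Neutrophil markers, 3 of 5 listed, ran from 220.7 to 255.0 normalized counts in Txn1 KO and 240.1 to 243.5 in wild-type libraries, and no B cell or erythroid marker was listed. Macrophage markers summed to 129200 to 131400 normalized counts in Txn1 KO and 491300 to 499000 in wild-type libraries, a sum that includes Lyz2; without Lyz2 it was 127000 to 127400 in Txn1 KO and 127600 to 130700 in wild-type libraries. In such bulk samples fewer cells of a type and less RNA per cell cannot be told apart, and the part of these cell types in the results below was not tested.

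The named pseudogenes were a small share of the RNA. They took 0.0671%, 0.0649% and 0.0638% of listed reads in the Txn1 KO libraries and 0.0659%, 0.0641% and 0.0631% in the wild-type libraries, so the shares of the groups overlapped. Mean levels over the 6 libraries ran from 9.91 to 6092 normalized counts with a median of 27.8; 45 genes had a mean of at least 50 and 3 of at least 1000. Per base of transcript, a copy stood at a median of 0.709% of its parent's level in Txn1 KO libraries and 0.653% in wild-type libraries. The genes with the highest means were not ribosomal copies. Gpr137b-ps, a duplicate of the gene for a lysosomal membrane protein, had 6014, 6262 and 5534 normalized counts in Txn1 KO and 6569, 5996 and 6179 in wild-type libraries, and the groups overlapped.

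Testing required a mean of 10 normalized counts over all 6 libraries, which a copy low in 1 group could reach through the other. Of the 130, 129 reached this mean. In Txn1 KO libraries 6 of these rose and 5 fell (limma on log2 values, Benjamini-Hochberg adjusted p under 0.05 over all 13977 tested genes). That is 8.53% of them, where 21.5% of all tested genes were called, 11.5% higher and 9.97% lower. By level, at a mean of at least 50 normalized counts 9 of 45 pseudogenes were called (20.0%), against 25.3% of all tested genes at such levels, and below 50 it was 2 of 84 (2.38%) against 6.54%. The median log2 change was -0.02 for the named pseudogenes and -0.0049 for all tested genes. The 407 tested pseudogenes without a -ps name gave 17 higher and 16 lower calls (8.11%). The groups did not overlap for 24 named pseudogenes (18.6%), 14 of them with Txn1 KO above and 10 with Txn1 KO below; 36.2% of all tested genes were separated in this way.

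The direction of the calls differed in count between kinds of copy, a difference that was not tested. Among the 62 ribosomal protein copies 5 rose and 1 fell, and among the 67 other copies tested 1 rose and 4 fell. All 6 that rose were annotated as processed pseudogenes, and none of the 103 tested genes so annotated fell. No call was made among the 24 copies that have every window in another gene, where the median log2 change was -0.06, or among the 8 that have none. The share called was 8.53% over the named pseudogenes and 21.5% over all tested genes, and at the former share sets this small hold few calls. Copies clear of other genes were called in 7 of 77 cases, and copies overlapping another gene in 4 of 52.

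**Figure D1:**
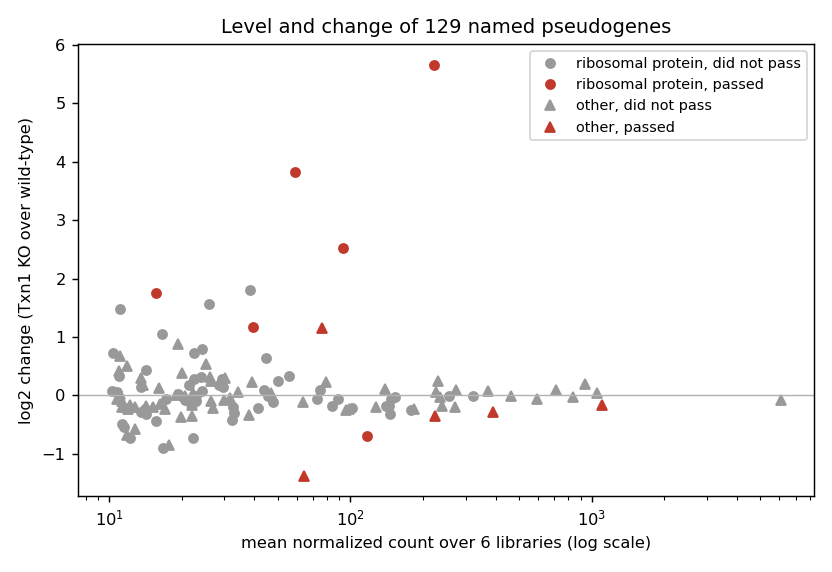
Log2 change (Txn1 KO over wild-type, vertical axis) against mean normalized count over 6 libraries (horizontal axis, log scale) for the 129 tested named pseudogenes; circles are ribosomal protein copies, triangles other copies, and red marks genes that passed the limma test. The 4 largest changes are ribosomal protein copies, at log2 changes of 5.66, 3.82, 2.52 and 1.80, the last of which did not pass.

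Calls were more frequent among the parents, which stand at far higher levels. In Txn1 KO libraries 36 of the 85 parents fell and 5 rose, with a median log2 change of -0.08. That is 42.35% and 5.88%, where 9.97% of all tested genes fell and 11.5% rose. The median level was 8871 normalized counts for the parents and 553.3 for all tested genes. The part of level in these shares was not tested. Among the 38 parents that encode ribosomal proteins 27 fell and none rose (median log2 change -0.14), as did 51 of all 86 cytosolic ribosomal protein genes listed (median log2 change -0.13). Of the 11 pseudogenes called, 9 had a listed parent. The parent was called in the other direction for 5 of these pseudogenes, in the same direction for 2 and not at all for 2. Rps15a is the parent of 3 of those 5 and so counts 3 times. Among the 118 pseudogenes not called, 48 had a parent that fell and 5 a parent that rose. For those 118 the log2 values lay between -0.89 and 1.80, and the 95% interval extended 0.679 to either side at the median, and 1.71 at the widest. A change of the size seen in most parents was therefore not detectable at the precision of a typical copy.

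**Figure D2:**
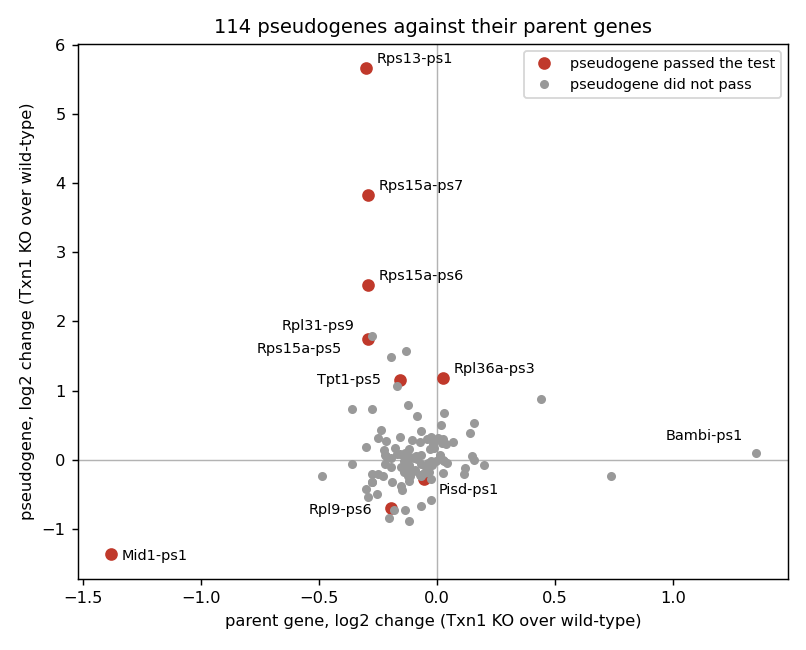
Log2 change of 114 tested pseudogenes (vertical axis) against that of their parent genes (horizontal axis), both Txn1 KO over wild-type; red points passed the limma test. The 4 Rps13 and Rps15a copies in red stand above 1.7 while their parents lie at -0.30 and -0.29, and Mid1-ps1 stands beside its parent at -1.37 and -1.38.

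Among the named pseudogenes, Rps13-ps1 had the largest change. It had 491.5, 412.4 and 406.4 normalized counts in Txn1 KO libraries (424, 431 and 302 reads) and 6.11, 8.55 and 8.38 in wild-type libraries (6, 11 and 10 reads). All Txn1 KO libraries lay far above all wild-type libraries, at 56.9 times their mean (log2 5.66 ± 0.20, SE; limma adjusted p = 2.53e-12). Rps13 itself fell to 6244 ± 238 normalized counts in Txn1 KO, against 7689 ± 417 in wild-type libraries (SD, n = 3 each), a log2 change of -0.30 (limma adjusted p = 4.57e-05). Per base of transcript, Rps13-ps1 reached 7.65% of the level of Rps13 in Txn1 KO and 0.110% in wild-type libraries. The other listed copies, which carry one or none of its pair of coding differences, did not pass. Rps13-ps4 had 27.8, 29.7 and 33.6 normalized counts in Txn1 KO and 27.5, 31.1 and 21.8 in wild-type libraries (log2 0.18, 95% interval -0.41 to 0.77). Rps13-ps2 had 26.7, 18.2 and 39.0 in Txn1 KO and 43.8, 34.2 and 31.9 in wild-type libraries (log2 -0.43, 95% interval -1.07 to 0.21). Groups overlapped for each of these last copies, which are named here after their values were seen.

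All 3 listed copies of Rps15a rose, out of 8 annotated. Rps15a-ps5 and Rps15a-ps7 had wild-type means of 6.7 and 7.0 normalized counts, under the mean of 10 set for testing. They, like Rps13-ps1 at 7.7, reached that mean only through their Txn1 KO values. Copies this low in both groups could not enter, so these 3 do not give the share of Rps15a copies that rose. Rps15a-ps7 had 125.2, 109.1 and 98.2 normalized counts in Txn1 KO and 5.09, 9.33 and 6.71 in wild-type libraries, or 108, 114 and 73 reads against 5, 12 and 8. The groups differed by 3.82 ± 0.29 on the log2 scale (SE; limma adjusted p = 3.68e-08). Rps15a-ps6 had 201.7, 129.2 and 148.0 normalized counts in Txn1 KO and 26.5, 27.98 and 25.2 in wild-type libraries (log2 2.52 ± 0.20, SE; limma adjusted p = 6.73e-08). In these copies too, every Txn1 KO library lay above every wild-type library. Rps15a-ps5, at the lowest level, had 27.8, 22.0 and 24.2 normalized counts in Txn1 KO and 8.15, 6.99 and 5.03 in wild-type libraries (log2 1.75 ± 0.41, limma adjusted p = 0.00463), again without overlap. Rps15a fell to 6362 ± 114 normalized counts in Txn1 KO, against 7778 ± 188 in wild-type libraries (SD, n = 3 each; log2 -0.29, limma adjusted p = 7.58e-06).

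Rps15a-ps6 lies in an intron of Nudcd3 on the same strand, and Rps15a-ps5 in an intron of Lrrc8d on the opposite strand. Whether the authors counted by strand is not given in the sources here, so reads of an unspliced host transcript and of such a copy cannot be told apart. Nudcd3, a co-chaperone gene, did not pass (log2 -0.02, limma adjusted p = 0.774), and Lrrc8d, which encodes a subunit of volume-regulated anion channels, rose slightly (log2 0.14, limma adjusted p = 0.0475). Rps13-ps1 and Rps15a-ps7 overlap no other annotated gene. These 4 copies passed at every alternative setting in which they were tested.

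The ratio of a copy to its parent was taken within each library, with 1 added to each normalized count, which understates the difference where a copy is low. On the log2 scale the ratio of Rps13-ps1 to Rps13 was -3.73, -3.88 and -3.91 in Txn1 KO and -10.16, -9.63 and -9.62 in wild-type libraries, a difference of 5.96 (5.42 with 5 added in place of 1). For the copies of Rps15a the differences were 4.11 (Rps15a-ps7), 2.81 (Rps15a-ps6) and 2.04 (Rps15a-ps5). None of these 4 ratios overlapped between groups, and the exact two-sided permutation test gave p = 0.1 for each, the smallest value that 3 against 3 libraries allow. The copies gained fewer counts than their parents lost: summed over the listed copies of Rps13, levels were 495.1 ± 45.1 normalized counts in Txn1 KO and 71.1 ± 8.05 in wild-type libraries, and parent and copies together were at 6739 ± 282 and 7760 ± 424 (SD, n = 3 each). For Rps15a the copies summed to 295.2 ± 51.8 in Txn1 KO and 40.3 ± 3.73 in wild-type libraries, and parent and copies together to 6657 ± 155 and 7818 ± 188. The log2 change of the sum of parent and copies was -0.20 for Rps13 and -0.23 for Rps15a.

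**Figure D3:**
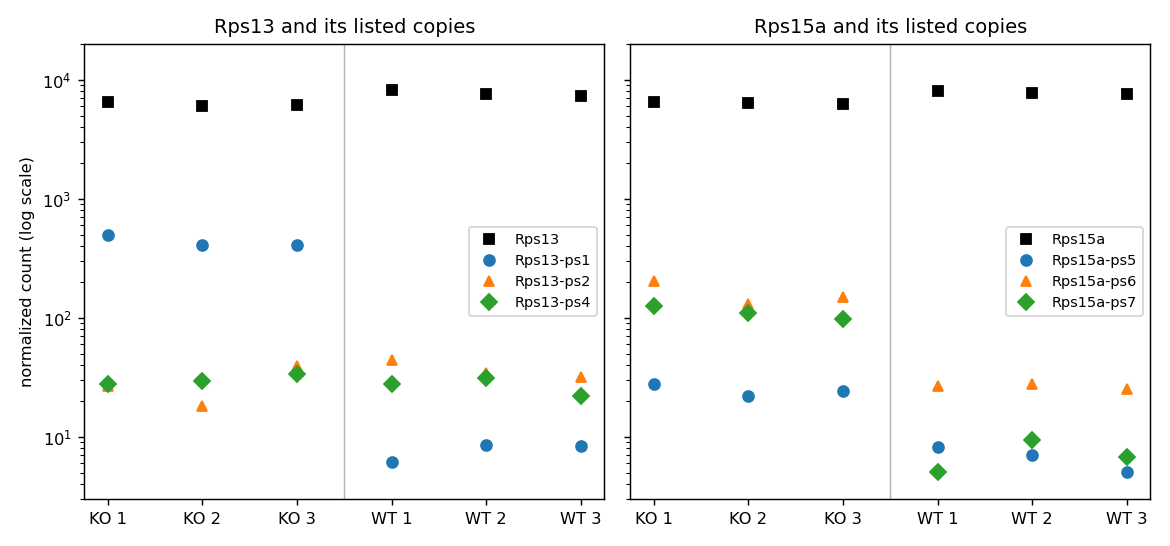
Normalized counts (log scale) of Rps13 (left panel) and Rps15a (right panel), black squares, with their listed copies in each Txn1 KO (KO 1 to 3) and wild-type (WT 1 to 3) library. Rps13-ps1 and the 3 Rps15a copies are higher in every Txn1 KO library, Rps13-ps2 and Rps13-ps4 overlap between groups, and both parents are slightly lower in Txn1 KO.

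The 4 copies that rose lie on chromosomes 8, 2, 11 and 5, while both parents lie on chromosome 7, 1.77 Mb apart. Plekha7, which encodes an adherens junction protein, lies 23.1 kb from Rps13 and had 180.8, 143.5 and 156.1 normalized counts in Txn1 KO and 3.06, 3.11 and 9.22 in wild-type libraries. It rose by 4.85 on the log2 scale (limma adjusted p = 1.63e-08) with no overlap between groups. Pik3c2a, on the other side of Rps13, rose by 0.38 (limma adjusted p = 2.34e-04). Both neighbours were named after their values were seen. Reads were aligned to GRCm38, which is a C57BL/6J sequence. The bases that the Txn1 KO libraries carry at T150C, T411C and A429G were not read here, and the part of sequence differences between the groups in these counts was not tested.

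**Figure D4:**
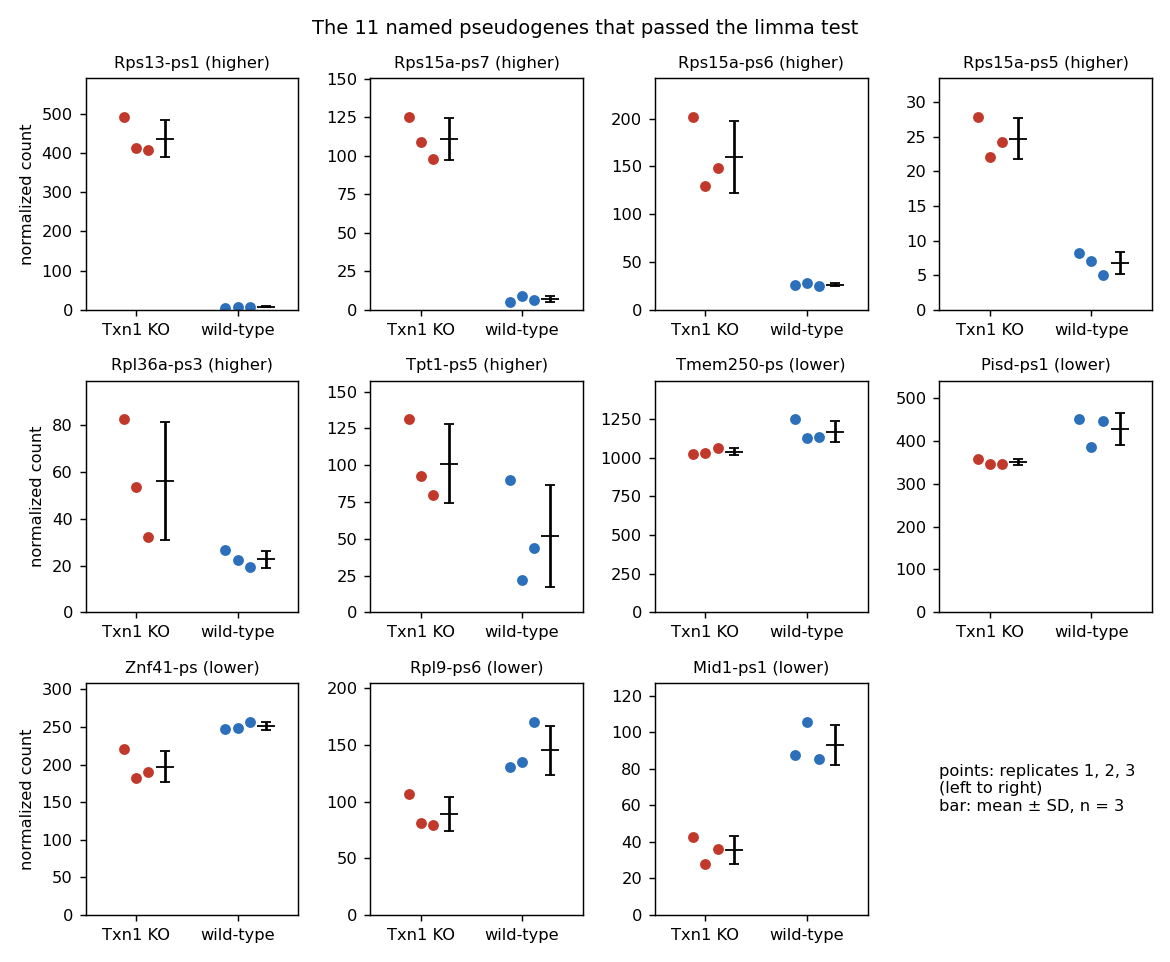
Normalized counts of the 11 named pseudogenes that passed the limma test, each panel with its own linear axis from 0; points are replicates 1 to 3 of Txn1 KO (red) and wild-type (blue), and bars the mean ± SD (n = 3). The groups are separate in all panels except that of Tpt1-ps5, where wild-type replicate 1, at 89.7, lies among the Txn1 KO values of 79.4 to 131.0.

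The remaining rises were smaller and rested on single libraries. Rpl36a-ps3 (chr6:136488807-136489127, plus strand) had 82.3, 53.6 and 32.3 normalized counts in Txn1 KO and 26.5, 22.5 and 19.3 in wild-type libraries. The groups did not overlap, though the Txn1 KO values spread widely (log2 1.18 ± 0.31, limma adjusted p = 0.0119). The call was lost without Txn1 KO replicate 1 (limma adjusted p = 0.0913) and without wild-type replicate 3 (limma adjusted p = 0.0573). By sequence this copy was closer to another gene than the one it is named for: none of its windows stood in Rpl36a, to which it was 87.5% identical, and 81.6% stood in Rpl36al. Both genes encode versions of a large-subunit protein, and neither passed the test, with log2 differences of 0.03 each.

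Tpt1 encodes the translationally controlled tumor protein, and its copy Tpt1-ps5 (chr9:37696515-37697030, plus strand) is set apart from it by 13 mismatches. The first 90 coding bases are shown for Tpt1 (chr14:75845093-75848525, plus strand) and the copy, with differences in capitals, since they give reads more points of distinction than in the copies above.
Tpt1: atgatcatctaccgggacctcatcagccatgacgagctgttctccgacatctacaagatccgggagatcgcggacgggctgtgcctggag
Tpt1-ps5: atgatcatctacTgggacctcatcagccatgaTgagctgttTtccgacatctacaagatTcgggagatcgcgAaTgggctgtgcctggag
Tpt1-ps5 shared 30.2% of its windows with Tpt1. It had 131.0, 92.8 and 79.4 normalized counts in Txn1 KO and 89.7, 21.8 and 43.6 in wild-type libraries, so the groups overlapped while the test was passed (log2 1.15 ± 0.35, limma adjusted p = 0.0258). The call was lost without Txn1 KO replicate 1 or 2, without wild-type replicate 2 or 3, and in edgeR and DESeq2 (log2 0.65 to 1.19, adjusted p = 0.0539 to 0.282 over these settings). Tpt1-ps5 was not called in the authors' deposited table either (their adjusted p = 0.286). Tpt1 fell (log2 -0.15, limma adjusted p = 0.00216). Another copy, Tpt1-ps3, had a mean of 735.1 normalized counts in Txn1 KO and 692.8 in wild-type libraries and did not pass (log2 0.09, limma adjusted p = 0.370). It shows no difference from Tpt1 over its aligned bases and has every window in Tpt1, yet 530 to 756 reads were assigned to it in Txn1 KO and 699 to 857 in wild-type libraries. How reads that match several genes were counted is not given in the sources here.

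The strongest fall was that of Mid1-ps1 on chromosome Y. Mid1 encodes a ubiquitin ligase bound to microtubules, and in the laboratory mouse the gene spans the boundary of the pseudoautosomal region, where X and Y share sequence. Mid1-ps1 (chrY:90753057-90763485, plus strand), which overlaps exons of Gm21860 on the opposite strand, had 42.9, 27.7 and 36.3 normalized counts in Txn1 KO and 87.6, 105.7 and 85.5 in wild-type libraries. Every Txn1 KO library lay below every wild-type library (log2 -1.37 ± 0.21, limma adjusted p = 1.37e-04). Mid1 fell alongside it (log2 -1.38, limma adjusted p = 1.002e-06), and 86.2% of the windows of the copy stand in Mid1. The log2 ratio of copy to parent differed by 0.01 between the groups (exact two-sided permutation p = 1) and turned negative without Txn1 KO replicate 1 (-0.12), wild-type replicate 1 (-0.02) or wild-type replicate 3 (-0.10). All 6 other tested genes of chromosome Y also fell, with a median log2 change of -0.997. Cells of each sex were pooled in both groups, in proportions that the labels do not give, and their part in this fall was not tested.

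Rpl9-ps6 (chr19:32465865-32466578, minus strand), a copy of the gene for a large-subunit protein, was the only ribosomal copy that fell. It is annotated as protein coding, differs from Rpl9 by 1 mismatch and keeps all 192 codons. It had 106.6, 81.3 and 79.4 normalized counts in Txn1 KO and 130.4, 135.2 and 170.2 in wild-type libraries, without overlap (log2 -0.70 ± 0.16, limma adjusted p = 0.00427). Rpl9 fell less (log2 -0.19, limma adjusted p = 1.95e-04), and the log2 ratio of copy to parent differed by -0.51 between Txn1 KO and wild-type libraries (exact two-sided permutation p = 0.1, the smallest possible). The call on Rpl9-ps6 was lost only when both libraries with liver transcripts were left out, at nearly the same size (log2 -0.70, limma adjusted p = 0.0515, with 4 libraries).

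The other falls were slight and came from genes at higher levels. Pisd-ps1 (chr11:3125904-3131004, plus strand), an unprocessed copy of a gene for mitochondrial phosphatidylethanolamine synthesis, had 358.2, 345.4 and 345.9 normalized counts in Txn1 KO and 449.3, 384.7 and 446.9 in wild-type libraries (log2 -0.28 ± 0.083, limma adjusted p = 0.0209). Znf41-ps (chr4:145825237-145829942, plus strand), an unprocessed zinc finger pseudogene with 82.8% of its windows in Zfp991, had 220.3, 181.8 and 189.8 in Txn1 KO and 246.6, 248.7 and 256.6 in wild-type libraries (log2 -0.35 ± 0.11, limma adjusted p = 0.0245). Tmem250-ps (chr2:26136814-26140521, minus strand), annotated as a lincRNA and overlapping 1810012K08Rik on the opposite strand, had 1024, 1028 and 1065 in Txn1 KO and 1246, 1125 and 1131 in wild-type libraries (log2 -0.17 ± 0.055, limma adjusted p = 0.0370). Groups were separate for all 3, but none of the 3 calls held at every setting. Pisd-ps1 lost it without wild-type replicate 1 or 3 or Txn1 KO replicate 2 (limma adjusted p = 0.0602 to 0.108), Znf41-ps without any library except Txn1 KO replicate 1 (0.0518 to 0.0963), and Tmem250-ps without wild-type replicate 1 or 3 or Txn1 KO replicate 1 or 2 (0.0615 to 0.168). All 3 also lost it without both libraries with liver transcripts (limma adjusted p = 0.106 to 0.166). Tmem250-ps lost it as well in DESeq2 (adjusted p = 0.0590), and was not called in the authors' deposited table.

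Of the 26 copies of other genes with a mean of at least 50 normalized counts, the 21 that did not pass had log2 values between -0.26 and 0.25. Ftl1-ps1, annotated as protein coding, is a copy of the ferritin light chain gene; it had 1063, 1036 and 1104 normalized counts in Txn1 KO and 1013, 1022 and 1065 in wild-type libraries (log2 0.05, 95% interval -0.06 to 0.16). Gpx4-ps2, a copy of the gene for a glutathione peroxidase that reduces lipid peroxides, had 878.7, 757.8 and 842.5 in Txn1 KO and 888.5, 766.2 and 872.0 in wild-type libraries (log2 -0.03, 95% interval -0.18 to 0.12). Ppp4r1l-ps had 917.0, 969.3 and 1113 in Txn1 KO and 836.5, 910.0 and 881.2 in wild-type libraries (log2 0.19, 95% interval 0.04 to 0.33, limma adjusted p = 0.0614). Of these 3, Ppp4r1l-ps alone had separate groups, and it passed the test when Txn1 KO replicate 1 was left out (limma adjusted p = 0.0250). Groups were separate for 6 of the 21 in all. Called or not, this held for 38.5% of the 26 copies and for 40.5% of all tested genes with such a mean.

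Of these 21, 7 had a parent that passed, 3 higher and 4 lower. Given here are Gpr137b-ps, which has the highest mean, and Bambi-ps1, chosen after its values were seen. Gpr137b rose to 14370 ± 435 normalized counts in Txn1 KO, against 12510 ± 268 in wild-type libraries (log2 0.20, limma adjusted p = 2.97e-04), while Gpr137b-ps had a log2 difference of -0.07 (95% interval -0.17 to 0.02). Their log2 ratio was -1.25, -1.24 and -1.33 in Txn1 KO and -0.93, -1.09 and -0.99 in wild-type libraries, a difference of -0.27 without overlap (exact two-sided permutation p = 0.1, the smallest possible). Bambi, which encodes a pseudoreceptor that dampens TGF-beta signaling, had 373.3, 374.1 and 324.3 normalized counts in Txn1 KO and 159.0, 125.1 and 135.0 in wild-type libraries (log2 1.35, limma adjusted p = 1.31e-07). Bambi-ps1, which shares no 50-base window with its parent and is 88.4% identical to it, had 272.4, 295.7 and 279.9 in Txn1 KO and 268.0, 267.3 and 257.4 in wild-type libraries (log2 0.10, 95% interval -0.09 to 0.29, limma adjusted p = 0.509). The ratio of Bambi-ps1 to Bambi differed by -1.26 on the log2 scale, also at an exact two-sided permutation p = 0.1.

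A set of 5 ribosomal protein copies spread widely among the Txn1 KO libraries, and these are named after their values were seen. They are the copies that gained a call when Txn1 KO replicate 3 was left out. Rpl31-ps9 had 141.4, 51.7 and 6.73 normalized counts in Txn1 KO replicates 1, 2 and 3 and 8.15, 10.9 and 11.7 in wild-type libraries. These values came from 122, 54 and 5 reads against 8, 14 and 14. Replicate 3 of Txn1 KO was thus below every wild-type library while replicates 1 and 2 were above them all. Rpl30-ps1 had 85.8, 28.7 and 10.8 in Txn1 KO and 15.3, 5.44 and 10.1 in wild-type libraries. Rpl28-ps3 had 52.2, 16.3 and 5.38 against 13.2, 7.77 and 4.19, and Rps2-ps6 had 49.9, 29.7 and 8.07 against 28.5, 8.55 and 10.1. Rpl9-ps8 had 29.0, 25.8 and 1.35 in Txn1 KO and 4.08, 3.89 and 2.52 in wild-type libraries, so its lowest value, 1 read, was under the floor. In each of the 5, Txn1 KO replicates 1 and 2 lay above all wild-type libraries and replicate 3 lay among or below them. This order was also seen outside the 5, as in Rps6-ps3 (17.4, 17.2 and 5.38 in Txn1 KO, 8.15, 10.9 and 3.35 in wild-type libraries). The wild-type means of Rpl9-ps8 and Rpl28-ps3, 3.49 and 8.40, were under the mean of 10 set for testing. These copies reached that mean only through their Txn1 KO values.

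None of the 5 passed (limma adjusted p = 0.0598 to 0.404). Without Txn1 KO replicate 3 all 5 did, which their choice had fixed in advance. Their log2 changes were then 2.96 for Rpl31-ps9, 2.68 for Rpl9-ps8, 2.27 for Rpl30-ps1, 1.81 for Rpl28-ps3 and 1.43 for Rps2-ps6 (limma adjusted p = 8.15e-06 to 0.0260). The count of pseudogenes that rose became 11 in place of 6. With all libraries included, edgeR on the recovered reads called Rpl31-ps9, Rpl30-ps1 and Rpl9-ps8, and the authors' deposited table called Rpl9-ps8. The parents were even within the Txn1 KO group, as Rpl31 had 17870, 17900 and 16480 normalized counts in Txn1 KO and 22910, 20600 and 19720 in wild-type libraries. Txn1 KO replicate 3 is the Txn1 KO library with hepatocyte markers, and the wild-type library with them, replicate 1, had the highest wild-type value for 4 of the 5. Lyz2 had 4327, 3251 and 1775 normalized counts in the same Txn1 KO replicates. The part of these differences was not tested.

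The bases that set Rpl31-ps9 (chr1:129801387-129801764, minus strand) apart from Rpl31 (chr1:39367842-39371911, plus strand), the gene of a large-subunit protein, are shown for coding bases 227 to 373, as this copy varied widely between replicates; which bases its reads carried was not examined.
Rpl31: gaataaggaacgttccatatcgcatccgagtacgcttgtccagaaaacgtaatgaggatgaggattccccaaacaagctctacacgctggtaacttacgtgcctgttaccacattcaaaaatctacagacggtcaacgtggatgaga
Rpl31-ps9: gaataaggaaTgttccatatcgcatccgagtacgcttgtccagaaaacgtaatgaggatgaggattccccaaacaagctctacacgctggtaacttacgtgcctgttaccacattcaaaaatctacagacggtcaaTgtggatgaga
Rpl31-ps9 differed from Rpl31 by 2 mismatches in all, and 79.9% of its windows stand in Rpl31. It lies in an intron of Thsd7b on the opposite strand.

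**Figure D5:**
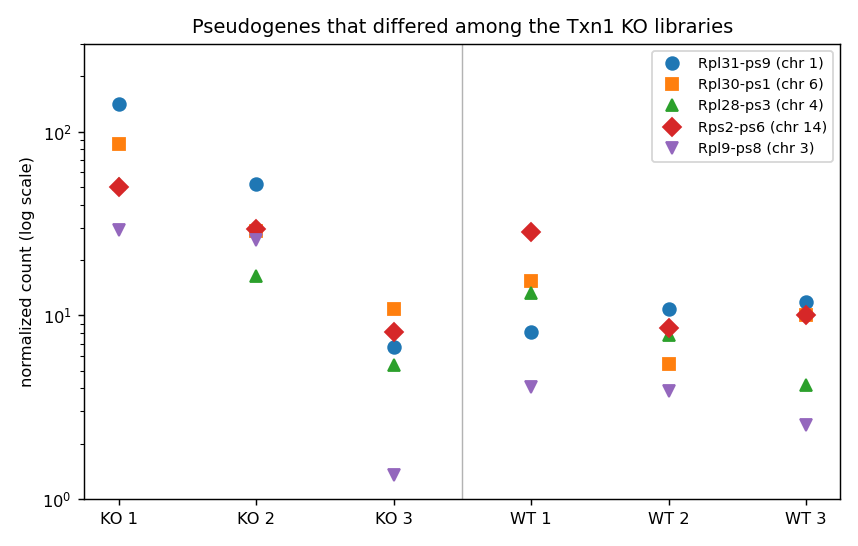
Normalized counts (log scale) of 5 ribosomal protein copies in each Txn1 KO (KO 1 to 3) and wild-type (WT 1 to 3) library, with the chromosome of each in the legend. KO 1 and KO 2 lie above the wild-type libraries for every copy, and KO 3 lies among them or below, at 1.35 to 10.8.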

How the data were processed

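PolyA-selected RNA of 3 BMDM libraries labelled Txn1 KO and 3 wild-type libraries was analysed. The submitters' processing notes name STAR 2.5.2b, Trimmomatic 0.36, DESeq2 and bcl2fastq 2.20, and the build GRCm38 (mm10). How reads were counted, with or without strand, and on which annotation release is not given in the sources here. The deposited signal per library is the authors' read count divided by a size factor: 100% of values came out as whole reads at a tolerance of 0.01. The deposited log2 fold changes and p-values are the authors' own and served as an alternative. The control columns were matched to wild-type by elimination.

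The main test was limma 3.58.1 (R 4.3.3, trended prior, two-sided) on log2(normalized count + 1) for genes with a mean of at least 10, so fold changes of low genes are understated. On recovered reads edgeR 4.0.16 called 1580 genes higher and 1389 lower; limma-voom and DESeq2 1.42.0 were further alternatives. The procedure was tested on simulated data with the same setting of spread for every gene. That test gives no error rate for copies that varied more between replicates. Copy and parent transcripts of GENCODE M21, whose build matches the files, were aligned locally with Biopython 1.88. The 50-base windows were searched in all other annotated transcripts on both strands, and for the share in the parent on the same strand only. Levels per base used transcript lengths from this annotation.

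The rule named called pseudogenes with a mean of at least 50 and separate groups, the 5 with the highest means, called ones whose parent was called the other way, and the non-ribosomal ones with a mean of at least 50. Rpl36a-ps3 and other low ones were chosen after their values were seen. The members and lists were chosen with earlier results of these data known.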

Additional observations from a re-analysis of the deposited data

How the results depend on the processing

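The count of named pseudogenes that rose, 6, ran from 4 to 11 when each library was left out (11 without Txn1 KO replicate 3) and was 11 without both libraries with liver transcripts. The count that fell, 5, ran from 2 to 4 (2 without wild-type replicate 1 or 3, and 3 without Txn1 KO replicate 2), and was 1 without both liver libraries, 2 at an adjusted p under 0.01 and 0 among annotated processed pseudogenes. With edgeR, DESeq2 and limma-voom 5, 4 and 5 named pseudogenes fell. Parents that rose, 5, ran from 3 to 7 and were 3 at 0.01. Parents that fell, 36, ran from 22 to 33, and were 21 without both liver libraries and 22 at 0.01. Over all genes, 1607 rises and 1394 falls became 1197 to 1516 and 891 to 1304 with a library left out, and 1024 and 809 at 0.01. The causes were not tested. Sign changes were limited to values that had not passed: Gpr137b-ps was 0.012 without both liver libraries, and with a library left out Gpx4-ps2 ran from -0.094 to 0.034, Rpl36a from -0.016 to 0.074, and the log2 ratio of Mid1-ps1 to Mid1 from -0.12 to 0.14. Deviations from the group means correlated at r = -0.268, 0.137 and -0.328 between same-numbered libraries. The highest value, 0.432, was between Txn1 KO replicate 3 and wild-type replicate 1, which hold the liver transcripts. As deviations within a group cancel out and liver transcripts enter them, these values cannot decide whether the numbers pair the libraries. Not every library correlated best with its own number. With the replicate block 7 pseudogenes rose (Rpl30-ps1 in addition) and 4 fell (without Tmem250-ps). In that setting 5 parents rose and 33 fell, and 1433 and 1242 of all genes did. The 95% interval of a typical copy is wider than the change of most parents; the part of depth in the low share of calls was not tested.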
